A study of Mus musculus with 12 samples.

Results

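The extracellular matrix and adhesion genes of sorted mouse blood stem and progenitor cells were described on 12 arrays, 3 in each of 4 groups. Members were chosen by symbol alone: collagens, laminins, fibulins, fibrillins, thrombospondins and further matrix glycoproteins, insulin-like growth factor binding proteins, matrix metalloproteinases, ADAM and ADAMTS proteins, TIMPs, integrins, cadherins and immunoglobulin-type adhesion molecules. The rule found 86 genes of 9984 in all, each read from 1 probe set. Of these, 2 match the pattern by letters only (Itgb1bp1 and Itgb1bp2, which are integrin binding proteins), and they were kept in a group of their own. No filter on dim values was used in the main fit, so all 86 members entered each of its tests. Cdh5, Esam, Vwf, Vcam1, Selp, Icam1, Icam2, Itgb2, Itgb3, Itgal, Itga5, Itga6, Jam2, Jam3, F11r, Thbs1, Adam8, Timp2 and Timp3 are not analysed here.

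The study asked what the ETS-family transcription factor Erg does in haematopoietic stem cells (HSCs) and multipotent progenitors (MPPs). All mice were males on a C57Bl/6 background of at least 6 generations. HSCs were sorted from Erg +/+ mice and from Erg +/- mice, in which a general deleter Cre had removed exon 11, which encodes the DNA-binding domain, from 1 allele. MPPs came from Cre-free Erg fl/fl mice or from Erg -/- mice, in which the interferon-inducible Mx1-Cre had removed the exon from both alleles in marrow cells. Both MPP groups received 5 injections of polyinosinic-polycytidylic acid (pIpC), an inducer of interferon, and were sorted 2 weeks after the first. HSCs were lineage-, Sca-1+, c-Kit+, CD150+ and CD48-. The labels of the MPP samples disagree, with CD150- in the sorting field and CD150+CD48- in the source field. The genotype label of the reduced-Erg HSC samples is Erg +/-, although their titles call them knock-outs. The labels give no age. Transcripts of Erg are not analysed here, and the genotypes were therefore taken as labelled.

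Matrix proteins form the scaffold outside cells: collagens and laminins build basement membranes, and glycoproteins such as fibronectin are bound by integrins, which are receptors of 1 alpha and 1 beta chain. Metalloproteinases, ADAM and ADAMTS enzymes cut matrix and surface proteins, and TIMPs inhibit them. In the marrow, blood stem cells are held by integrins such as the Itga4 with Itgb1 pair, while most matrix is made by stromal and endothelial cells. Erg is known as an activator of adhesion and junction genes in endothelial cells.

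The sort was checked on the arrays with Flt3, a receptor of early progenitors, which was 5.94-fold higher in Erg fl/fl MPPs than in Erg +/+ HSCs. Flt3 also differed by genotype. It was 2.51-fold lower in Erg +/- than in Erg +/+ HSCs, without overlap (limma adjusted p = 0.119). In MPPs it was 1.44-fold higher in Erg -/- than in Erg fl/fl, with overlapping arrays (limma adjusted p = 0.998). Values are RMA summaries on a log2 scale. Arrays of 1 group correlated between 0.953 and 0.974 over the genes, and array medians lay between 5.41 and 5.54. The interquartile range was 2.83 to 2.99 on the HSC arrays, and narrower, 2.50 to 2.84, on most MPP arrays. The lowest array weights were 0.667, for replicate 1 of the Erg fl/fl MPPs, and 0.789, for replicate 1 of the Erg +/+ HSCs. Whether the samples of a group are separate animals is not stated, so the p-values reflect only the scatter among these samples, which could be technical. In sorted bulk RNA, fewer cells of a type and less RNA per cell cannot be told apart.

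Promoters are shown for 3 members described below: the integrin chains Itgb8 and Itga4, and the thrombospondin Thbs2. They were searched because Erg belongs to the ETS family, whose members bind a GGAA core. Each line holds the 250 bases before the gene's start, from the RefSeq annotation of GRCm38.p6, in the direction of the gene, with the ETS core GGAA, or TTCC where it lies on the opposite strand, in capitals. The window of Itgb8 is chr12:119238277-119238526 on the minus strand, that of Thbs2 is chr17:14694263-14694512 on the minus strand, and that of Itga4 is chr2:79255176-79255425 on the plus strand.
Itgb8: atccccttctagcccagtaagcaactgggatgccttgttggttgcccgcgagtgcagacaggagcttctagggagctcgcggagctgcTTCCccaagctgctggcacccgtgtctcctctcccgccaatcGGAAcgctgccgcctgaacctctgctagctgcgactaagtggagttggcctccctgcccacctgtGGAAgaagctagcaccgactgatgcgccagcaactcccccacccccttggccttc
Thbs2: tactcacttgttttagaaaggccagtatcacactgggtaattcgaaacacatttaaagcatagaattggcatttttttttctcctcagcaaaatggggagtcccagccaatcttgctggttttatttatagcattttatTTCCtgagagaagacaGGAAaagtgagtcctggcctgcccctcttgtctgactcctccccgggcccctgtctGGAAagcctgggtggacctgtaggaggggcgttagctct
Itga4: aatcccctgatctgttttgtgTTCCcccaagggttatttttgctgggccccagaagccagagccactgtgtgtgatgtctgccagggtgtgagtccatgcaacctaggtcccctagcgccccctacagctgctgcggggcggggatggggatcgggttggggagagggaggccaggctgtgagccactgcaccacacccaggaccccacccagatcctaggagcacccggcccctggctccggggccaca
The core was found 3 times in the Itgb8 window, 3 times in that of Thbs2 and 1 time in that of Itga4. Windows were held for 56 of the 86 members, 61 in all, and 55 of them (90.2%) contained the core, against 93.4% of 32851 windows of all genes. The median was 3 matches in both sets. The longer string CCGGAAGT, searched on both strands, stood in 2 member windows (3.28%), those of Emilin2 and Itgb1bp1, and in 2.88% of all windows. The members' promoters therefore held these letters about as often as other promoters did.

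Most members were dim on these arrays. Of the 86, 67 had a mean value over the 12 arrays at or below the median gene, and 28 (32.6%) lay in the lowest quartile against 5 (5.81%) in the highest. The 5 in the highest quartile included the integrin chains Itga4, at a mean of 9.32, and Itgb1, at 9.08. These are values of different probe sets and do not rank the transcripts. The group means of single members spanned at most 0.90 log2 units, in the integrin chain Itgav, followed by 0.87 in the collagenase Mmp8 and 0.84 in the matrix glycoprotein Tnc. Read from the 1 probe set used, no member differed by more than 1 log2 unit, which is 2-fold, between any pair of the groups compared. Other probe sets of Adamts3 did, among them probe set 10531195, at 1.45 between the control populations. Directions of single members were often unsettled: leaving out 1 array turned the sign of the difference in 41 of the 86 members for HSC genotype and in 39 for MPP genotype. It did so in 21 members between the control populations and in 13 between the reduced-Erg populations.

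The first comparison asks what loss of 1 Erg allele does in HSCs. None of the 86 members was called by limma at an adjusted p under 0.05, where 0.02% of all genes were called, and the smallest adjusted p of a member was 0.789. At an unadjusted p under 0.05 there were 2 members, Itgam and Mmp19, against 6.32% of genes. The differences of Erg +/- minus Erg +/+ ran from -0.74 to 0.63, with 50 above 0 (58.1%, against 53.8% of genes) and 36 below and a median of 0.05, against 0.02 over all genes. Of the 67 members at or below the median gene in mean value, 62.7% were above 0, against 59.7% of genes as dim. Of the 19 brighter members 42.1% were, against 47.9% of brighter genes. The 95% confidence interval of the difference lay wholly inside 2-fold in either direction for 76 of the 86 members. The arrays of the groups did not overlap in 10 members, a share of 11.6% where 10.4% of all genes did so. Of these, 9 were higher in Erg +/- (6.06% of genes) and 1 was lower (4.38% of genes).

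The second comparison asks the same of complete loss of Erg in MPPs. Again limma called no member, where 0.0801% of genes were called, and the smallest adjusted p was 0.998. Only Adam22 had an unadjusted p under 0.05, against 4.79% of genes. The differences of Erg -/- minus Erg fl/fl ran from -0.55 to 0.52, with 53 above 0 (61.6%, against 49.4% of genes) and 33 below and a median of 0.07, against -0.00 over all genes. These shares varied with brightness. Of the 67 members at or below the median gene in mean value, 65.7% were above 0, against 61.6% of genes as dim. Of the 19 brighter members 47.4% were, against 37.2% of brighter genes. The interval lay wholly inside 2-fold for 80 of the 86 members. Groups did not overlap in 8 members, which is 9.3% against 10.5% of genes. Of these, 3 were higher in Erg -/- (4.36% of genes) and 5 were lower (6.1% of genes). Mx1-Cre was present in the Erg -/- group only, so its presence and the loss of Erg cannot be told apart.

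**Figure D1:**
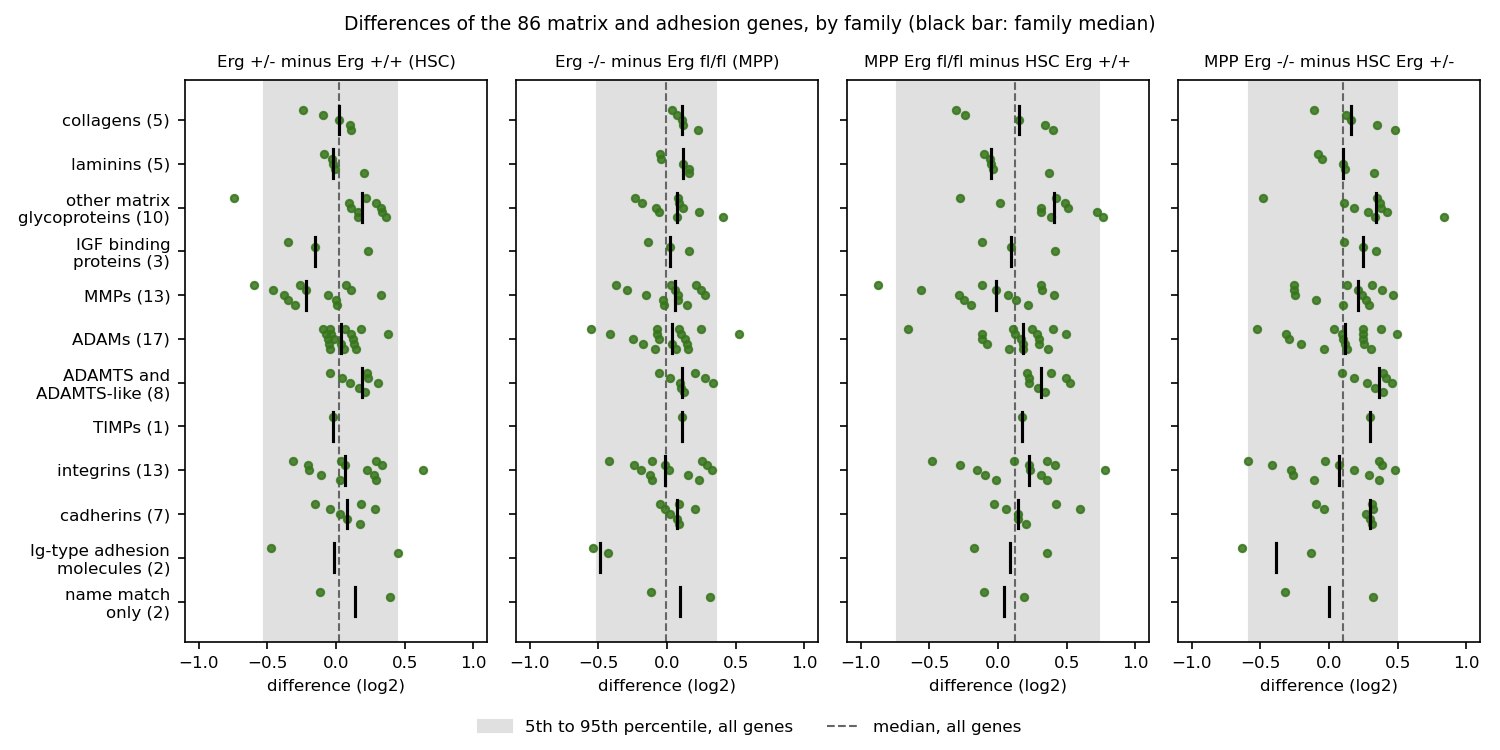
Difference in log2 value of each of the 86 members (points, x axis) by family (y axis) in the 4 comparisons, with the family median as a black bar, the median of all genes as a dashed line and the range from the 5th to the 95th percentile of all genes in grey. Members lie mostly inside the range of all genes, with 4, 4, 3 and 3 outside it from left to right.

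Among the adhesion receptors, Pecam1 is an immunoglobulin-type molecule of endothelial cells, platelets and blood progenitors. Its values were 7.92, 7.65 and 7.96 in Erg +/+ HSCs and 7.22, 7.64 and 7.25 in Erg +/- HSCs. They were 8.22, 7.36 and 7.42 in Erg fl/fl MPPs and 7.24, 7.29 and 7.19 in Erg -/- MPPs. In each population every reduced-Erg array was below every control array, although the nearest HSC pair stood at 7.64 and 7.65. Pecam1 was the only member of the 86 to lie apart in the same direction in both genotype comparisons (1.16%), which held for 78 genes in all (0.781%). Its difference was -0.47 (95% confidence interval -0.96 to 0.02, limma adjusted p = 0.823) in HSCs and -0.43 (-0.92 to 0.06, limma adjusted p = 0.998) in MPPs. The MPP difference was -0.15 without Erg fl/fl replicate 1, the array at 8.22. The average of both effects, added after seeing the data, was -0.45 (SE 0.16, limma adjusted p = 0.594), and no member was called on that average, where 0.1% of genes were.

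Markers of endothelial cells moved beside the HSC value of Pecam1. The 5 measured of 19 listed (Egfl7, Eng, Kdr, Plvap, Sox18) were all lower in Erg +/- HSCs, with a median difference of -0.34, and none was called. Their mean per array was between 6.58 and 7.06 in Erg +/+ HSCs and between 6.33 and 6.52 in Erg +/- HSCs. In MPPs 3 of the 5 were higher in Erg -/-, with a median of 0.01 and array means of 5.57 to 5.72 and 5.48 to 5.78. Eng is also expressed by HSCs. The part of these markers in the values of Pecam1 was not tested.

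Icam4 is a red-cell adhesion molecule. Its values were 5.62, 6.93 and 6.49 in Erg +/+ HSCs, 6.79, 6.71 and 6.89 in Erg +/- HSCs, 6.48, 6.57 and 7.05 in Erg fl/fl MPPs and 6.22, 6.41 and 5.85 in Erg -/- MPPs. The HSC groups overlapped and the MPP groups did not, with Erg -/- lower. The effect was 0.45 (-0.18 to 1.08) in HSCs, or 0.09 without Erg +/+ replicate 1, the array at 5.62, and -0.54 (-1.17 to 0.09) in MPPs. The difference of the effects was -0.99 (-1.88 to -0.10), with an unadjusted p of 0.0326 and a limma adjusted p of 1.00. It was -0.63 without Erg +/+ replicate 1. Over all members, no difference of genotype effects was called by limma, where 0.02% of genes were, and Icam4 was the only one at an unadjusted p under 0.05, against 3.88% of genes. Of the erythroid markers, 7 of 12 were measured and all 7 were higher in the reduced-Erg group of both populations, with medians of 0.63 and 0.40, none called. Their part in the values of Icam4 was not tested.

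None of the integrin chains reached the threshold. Itga4, which pairs with Itgb1 or Itgb7 as a receptor for Vcam1 and fibronectin, stood at 9.50, 9.17 and 9.25 in Erg +/+ HSCs and at 9.80, 9.64 and 9.36 in Erg +/- HSCs. In MPPs it stood at 9.30, 9.01 and 8.80 in Erg fl/fl and at 9.47, 9.52 and 8.98 in Erg -/-. The groups overlapped in both populations, and the difference was 0.29 in each (-0.15 to 0.74 in HSCs and -0.15 to 0.73 in MPPs). Itgb1, the common partner chain, differed by -0.11 (-0.46 to 0.23) and -0.13 (-0.47 to 0.22). Itgb7 differed by 0.03 and -0.11, and Itga2b, the platelet chain also found on early progenitors, by -0.20 and -0.11. The intervals of these 4 chains exclude a 2-fold difference. Itgav, a chain of vitronectin receptors, differed by -0.31 (-1.01 to 0.39) in HSCs and -0.42 (-1.12 to 0.28) in MPPs, and these intervals do not. Without Erg -/- replicate 3 the MPP value of Itgav was -0.11.

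Itgam, the alpha chain of the myeloid receptor Mac-1, had the smallest unadjusted p among members in HSCs, 0.04. It stood at 5.17, 5.46 and 6.14 in Erg +/+ and at 5.95, 6.42 and 6.28 in Erg +/-. The groups overlapped through Erg +/+ replicate 3. The difference was 0.63 (0.03 to 1.23, limma adjusted p = 0.789), and between 0.42 and 0.91 when single arrays were left out. In MPPs it was -0.01 (-0.61 to 0.58). Of 16 listed neutrophil and monocyte markers, 4 were measured (C1qa, C1qb, Cd68 and Fcgr3). Elane, Mpo, S100a8 and S100a9, also on the list, were not among them. Of the 4 measured markers, 3 were higher in Erg +/- HSCs, with a median of 0.33. Their array means were 5.82 to 6.52 in Erg +/+ and 5.90 to 6.69 in Erg +/-. Their part in the value of Itgam was not tested. Itgad, a leukocyte alpha chain, lay higher in all Erg +/- HSC arrays, at a difference of 0.34 (-0.05 to 0.73), and Itga11, a collagen-binding chain, in all Erg -/- MPP arrays, at 0.26 (-0.10 to 0.61).

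**Figure D2:**
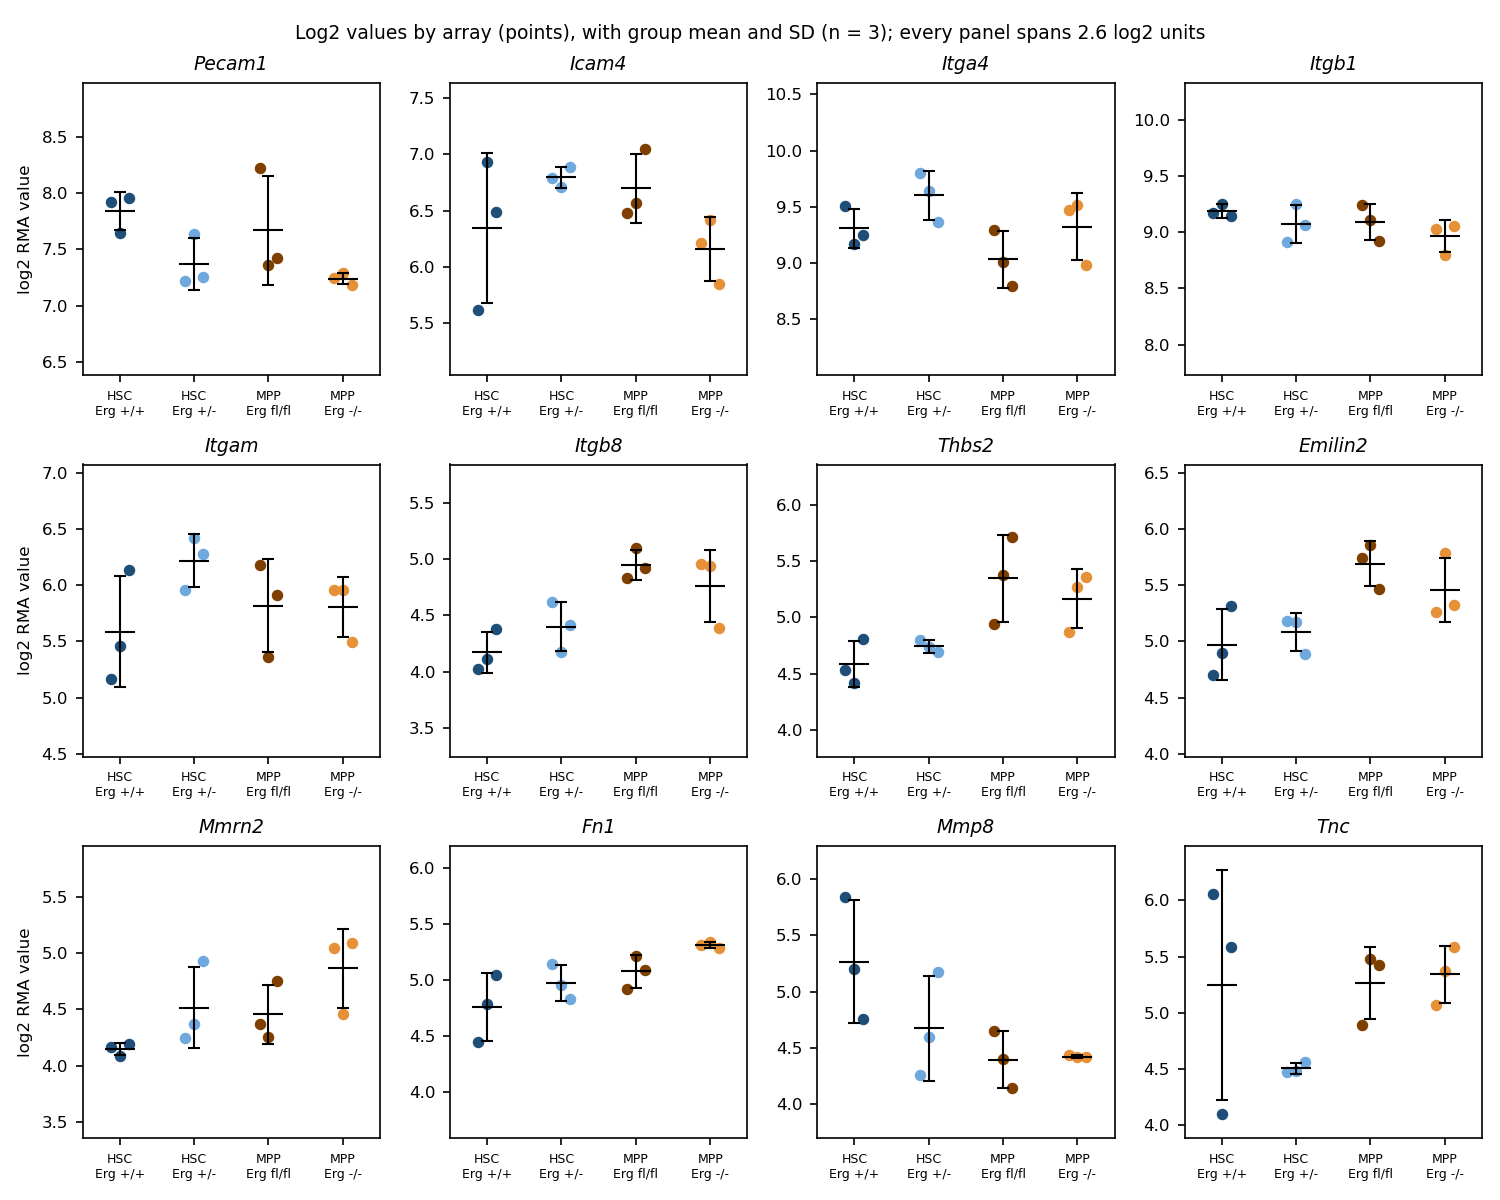
Log2 RMA value (y axis) of 12 members on each of the 12 arrays (points), by group (x axis), with the mean and SD of 3 arrays. Pecam1 is lower on every reduced-Erg array than on every control array of the same population, and Itgb8, Thbs2 and Emilin2 are higher on all Erg fl/fl MPP arrays than on all Erg +/+ HSC arrays.

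Matrix proteins were mostly at low values. Mmrn2, an endothelial multimerin, stood at 4.17, 4.09 and 4.19 in Erg +/+ HSCs and at 4.25, 4.37 and 4.93 in Erg +/- HSCs. It stood at 4.37, 4.25 and 4.75 in Erg fl/fl MPPs and at 5.05, 4.46 and 5.09 in Erg -/- MPPs. The HSC groups did not overlap and the MPP groups did, with differences of 0.37 (-0.13 to 0.86) and 0.41 (-0.09 to 0.90). Fn1, which encodes fibronectin, differed by 0.22 (-0.17 to 0.60) in HSCs and by 0.24 (-0.15 to 0.62) in MPPs, where every Erg -/- array was above every Erg fl/fl array. Of the 10 matrix glycoproteins outside the collagens and laminins, 9 were higher in Erg +/- HSCs, with a median of 0.19, and 6 in Erg -/- MPPs, with a median of 0.08. None of them was called. Fbln1, a fibulin of basement membranes, was higher on every Erg +/- than Erg +/+ HSC array, at 0.32 (-0.04 to 0.69), and differed by -0.06 (-0.42 to 0.31) in MPPs. Thbs4, a thrombospondin, was likewise higher on every Erg +/- HSC array, at 0.34 (-0.02 to 0.70), and differed by 0.11 in MPPs.

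Tnc, which encodes the glycoprotein tenascin C, was the exception among them in HSCs. It stood at 6.06, 4.10 and 5.59 in Erg +/+ and at 4.47, 4.49 and 4.56 in Erg +/-. The Erg +/+ arrays lay on both sides of the Erg +/- arrays, and the difference was -0.74 (-1.58 to 0.10, limma adjusted p = 0.851). It was -0.34 without Erg +/+ replicate 1 and -1.32 without Erg +/+ replicate 2. Stromal markers, 6 measured of 16, were lower in Erg +/- HSCs in 5 of 6, with a median of -0.57, and 1 of them, the matrix glycoprotein Sparc, fell by 2.08 on the log2 scale (limma adjusted p = 0.0401). The mean of these markers per array was 4.98 to 6.04 in Erg +/+ HSCs and 4.51 to 4.70 in Erg +/- HSCs. Their part in the value of Tnc was not tested.

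Type IV collagen is the collagen of basement membranes. Its chain Col4a1 differed by -0.09 (-0.44 to 0.25) in HSCs and 0.04 (-0.31 to 0.38) in MPPs. Col4a2, encoded beside it, differed by -0.24 (-0.77 to 0.29) and 0.23 (-0.31 to 0.76), and its HSC value was 0.04 without Erg +/+ replicate 3. All 5 collagens had values above 0 in MPPs and 3 of 5 in HSCs, or 2 of 5 when quantile normalization was repeated. Lama3, a laminin alpha chain, differed by 0.20 and 0.16, and Igfbp2, which binds insulin-like growth factors, by 0.23 and 0.16. Neither was called.

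Among the proteases, 4 of 13 matrix metalloproteinases were above 0 in HSCs, with a median of -0.22, and 8 of 13 in MPPs, with a median of 0.06. Mmp8, the neutrophil collagenase, stood at 5.84, 5.20 and 4.75 in Erg +/+ HSCs and at 4.25, 4.59 and 5.17 in Erg +/- HSCs. The groups overlapped, and the difference was -0.59 (-1.20 to 0.02, limma adjusted p = 0.813), or -0.30 without Erg +/+ replicate 1. Mmp19 differed by -0.46 (unadjusted p = 0.0483, limma adjusted p = 0.789) with overlapping arrays, and Mmp11 by -0.35 in HSCs and -0.29 in MPPs. Mmp2, the gelatinase of stromal cells, stood at 6.42, 6.58 and 6.65 in Erg fl/fl MPPs and at 6.36, 5.92 and 6.27 in Erg -/- MPPs. These arrays did not overlap, at a difference of -0.37 (-0.78 to 0.04). Mmp9 and Mmp14 differed in HSCs by -0.26 (-0.75 to 0.22) and 0.33 (-0.52 to 1.18), and in MPPs by 0.08 and 0.28. The HSC value of Mmp14 was -0.15 without Erg +/+ replicate 1, the opposite direction, and 0.84 without Erg +/+ replicate 3. Timp1, the only inhibitor measured, differed by -0.02 (-0.36 to 0.31) and 0.11 (-0.23 to 0.44).

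Adam22, a catalytically inactive ADAM that binds neuronal ligands, stood at 5.41, 5.39 and 5.93 in Erg fl/fl MPPs and at 6.29, 6.12 and 5.89 in Erg -/- MPPs. The groups overlapped at 1 array each, and the difference was 0.52 (0.04 to 1.01, unadjusted p = 0.0366, limma adjusted p = 0.998). In HSCs it was -0.10 (-0.58 to 0.39), and the difference of the effects was 0.62 (-0.07 to 1.31). Adam17, the sheddase of tumour necrosis factor, lay lower on all Erg -/- MPP arrays, at -0.42 (-0.84 to 0.01), and at -0.22 without Erg fl/fl replicate 1. B cell markers, 6 measured of 9, were lower in Erg -/- MPPs in 5 of 6, with a median difference of -0.98. Limma called 2 of them lower, where 8 of all 9984 genes were called. The median array mean of these markers was 6.57 in Erg fl/fl and 5.27 in Erg -/-. Their part in the MPP values of the members was not tested. Of the ADAMTS proteins, secreted matrix proteases and their relatives, 7 of 8 were above 0 in each population, or 6 of 8 in HSCs when quantile normalization was repeated. Adamts3 was counted there by its brightest probe set, and its other probe sets disagree. Among the cadherins, calcium-dependent cell adhesion proteins, Cdh2 differed by -0.04 (-0.39 to 0.31) and 0.08 (-0.27 to 0.44).

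The genotype effects in HSCs and MPPs come from different arrays. Across the 86 members their Pearson correlation was 0.20 and their Spearman correlation 0.28, against 0.13 in both measures over all genes, and 53 members (61.6%) had the same sign in both, against 54.7% of genes. These are descriptions over genes measured on the same arrays, and genes are not independent replicates.

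**Figure D3:**
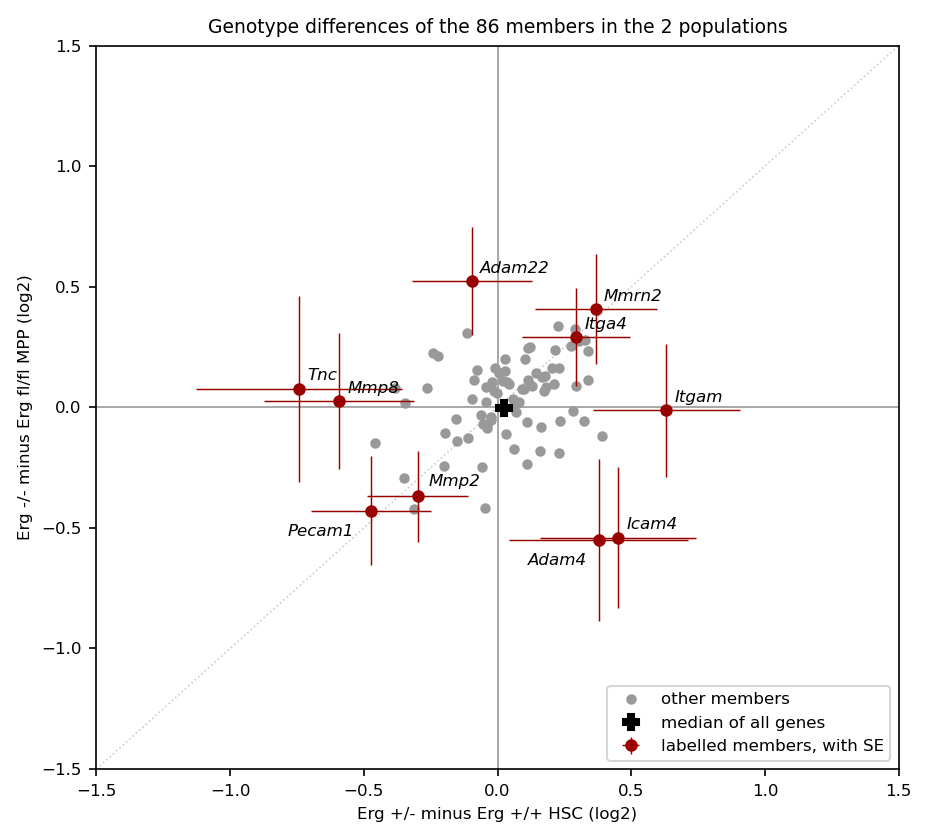
Difference in log2 value of the 86 members between Erg -/- and Erg fl/fl MPPs (y axis) against that between Erg +/- and Erg +/+ HSCs (x axis), with SE bars for the labelled members and a cross at the median of all genes. Pecam1 lies at -0.47 and -0.43 and Icam4 at 0.45 and -0.54.

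The remaining comparisons ask how HSCs and MPPs differ, in the control groups and in the reduced-Erg groups. The populations differ in pIpC treatment and, in the controls, in the floxed allele as well. In the reduced-Erg groups they also differ in Erg alleles, 1 lost in the HSCs and both in the MPPs, and in the Cre that removed them. These cannot be told apart from the cell type. Between the control groups limma called no member, where 1.28% of genes were called, and the smallest adjusted p of a member was 0.0739. At an unadjusted p under 0.05 there were 12 members, a share of 14% against 22.3% of genes. Of these, 10 were higher in MPPs (14.4% of genes) and 2 were lower (7.91% of genes). Arrays did not overlap in 24 members, which is 27.9% against 27% of genes, with 20 higher (18.5% of genes) and 4 lower in MPPs (8.54% of genes). The difference was above 0 in 59 members (68.6%), with a median of 0.19, against 62.4% and 0.12 over all genes. Among the 67 members at or below the median gene in mean value the share was 74.6%, against 74.8% of genes as dim. Among the 19 brighter members it was 47.4%, against 49.9% of brighter genes.

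Between the reduced-Erg groups limma again called no member, where 0.12% of genes were called, and the smallest adjusted p was 0.446. There were 4 members at an unadjusted p under 0.05, against 3.85% of genes, namely Itgb5, Col4a5 and Adam2 higher (1.79% of genes) and Icam4 lower in MPPs (2.05% of genes). Arrays did not overlap in 20 members, which is 23.3% against 20.1% of genes, with 18 higher (14.7% of genes) and 2 lower (5.47% of genes). The difference was above 0 in 62 members (72.1%), with a median of 0.23, against 59.9% and 0.10. Among the 67 members at or below the median gene in mean value the share was 80.6%, against 79.5% of genes as dim. Among the 19 brighter members it was 42.1%, against 40.2% of brighter genes. B cell markers differed between the control populations, with 3 of 6 called higher in MPPs and a median of 1.35. Endothelial markers were lower in control MPPs in 4 of 5, with a median of -0.72 and 2 called, Eng and Sox18, and in the reduced-Erg groups in 2 of 5, with a median of 0.02 and Eng called. Of the stromal markers 1 of 6, Sparc, was called lower in control MPPs, and none of 6 in the reduced-Erg groups. By direction, 4 of the 6 were higher in the control MPPs and all 6 in the reduced-Erg MPPs, with medians of 0.06 and 0.35. Of the megakaryocyte and platelet markers 1 of 8, Mmrn1, was called lower in both comparisons. Of all 8, 5 were lower in the control MPPs and 2 in the reduced-Erg MPPs, with medians of -0.16 and 0.14. Erythroid markers were higher in control MPPs in 7 of 7, with a median of 0.33, none called. The part of these markers in the members' values was not tested.

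The members nearest the threshold were matrix and integrin genes that stood higher in MPPs. Itgb8, the integrin chain that pairs with Itgav to activate latent TGF-beta, stood at 4.02, 4.12 and 4.38 in Erg +/+ HSCs and at 4.83, 5.10 and 4.93 in Erg fl/fl MPPs. It stood at 4.62, 4.18 and 4.41 in Erg +/- HSCs and at 4.96, 4.94 and 4.39 in Erg -/- MPPs. The control groups did not overlap and the reduced-Erg groups did. The difference was 0.78 (0.35 to 1.21), a 1.71-fold higher value, with a limma adjusted p of 0.0739, and 0.36 (-0.07 to 0.79) in the reduced-Erg groups. Its 3 ETS cores lie in the promoter window shown above. The share of member windows with a core was near that of all RefSeq windows.

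Thbs2, a thrombospondin that restrains vessel growth, stood at 4.53, 4.42 and 4.81 in Erg +/+ HSCs and at 4.94, 5.38 and 5.72 in Erg fl/fl MPPs. It stood at 4.80, 4.74 and 4.69 in Erg +/- HSCs and at 4.87, 5.27 and 5.36 in Erg -/- MPPs. MPP arrays were above HSC arrays in both comparisons. The difference was 0.76 (0.30 to 1.22, limma adjusted p = 0.0941) in the controls and 0.42 (-0.04 to 0.88) in the reduced-Erg groups. Without Erg fl/fl replicate 1 the control difference was 0.96 with a limma adjusted p of 0.0493, the only setting in which a member was called.

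Emilin2, an elastin-microfibril glycoprotein, stood at 4.70, 4.90 and 5.32 in Erg +/+ HSCs and at 5.74, 5.86 and 5.47 in Erg fl/fl MPPs. In Erg +/- HSCs it stood at 5.18, 5.17 and 4.89, and in Erg -/- MPPs at 5.26, 5.79 and 5.32. Groups did not overlap in either comparison, with differences of 0.72 (0.27 to 1.17, limma adjusted p = 0.1) and 0.38 (-0.08 to 0.83). Emilin2 in the reduced-Erg groups was 0.21 without Erg -/- replicate 2. Thbs4, a further thrombospondin, differed by 0.51 (0.15 to 0.87) and 0.29 (-0.07 to 0.64), and the control value was 0.31 when quantile normalization was repeated. Altogether 6 members lay higher in MPPs without overlap in both comparisons (Adam6b, Adamts13, Cdh13, Emilin2, Thbs2 and Timp1), a share of 6.98% where 5.49% of genes lay apart in the same way. When quantile normalization was repeated, the control difference turned from 0.17 to -0.03 in Timp1 and from 0.15 to -0.04 in Cdh13. On the average of both population differences, added after seeing the data, limma called no member, where 0.3% of genes were called. There, 32 members had an unadjusted p under 0.05 (37.2%, against 31.7% of genes), 28 higher (21.3% of genes) and 4 lower in MPPs (10.4% of genes).

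Of the members that stood lower in MPPs, Mmp8 had the largest control difference, -0.87 (-1.48 to -0.26, limma adjusted p = 0.121), and -0.58 without Erg +/+ replicate 1. In the reduced-Erg groups it was -0.25 (-0.86 to 0.36), or -0.00 without Erg +/- replicate 3. Itgav stood at 7.53, 7.31 and 7.09 in Erg +/+ HSCs and at 7.23, 7.15 and 6.09 in Erg fl/fl MPPs. The groups overlapped, and the difference was -0.48 (-1.18 to 0.22), with -0.59 (-1.29 to 0.11) in the reduced-Erg groups. Leaving out replicate 3 of the Erg fl/fl MPPs gave -0.12 for the first, and leaving out replicate 3 of the Erg -/- MPPs gave -0.28 for the second. Adam22 differed by -0.65 in the controls and -0.03 in the reduced-Erg groups. Cdh24 differed by 0.59 and 0.30 (0.02 without Erg -/- replicate 3), Lama3 by 0.37 and 0.33, and Adamtsl3 by 0.52 and 0.41.

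Tnc and Icam4 stood apart in the reduced-Erg groups. Tnc was at 4.47, 4.49 and 4.56 in Erg +/- HSCs and at 5.07, 5.37 and 5.58 in Erg -/- MPPs, a difference of 0.84 (-0.00 to 1.67, limma adjusted p = 0.446). In the controls it was 0.02 (-0.82 to 0.85), and this value changes sign when quantile normalization is repeated or arrays are centred on their median. Icam4 differed by -0.64 in the reduced-Erg groups (-1.27 to -0.00, limma adjusted p = 0.446) and by 0.35 in the controls (-0.28 to 0.99), or -0.01 without Erg +/+ replicate 1. Itgb5, a vitronectin-binding chain, differed by 0.48 with overlapping arrays, or 0.29 without Erg +/- replicate 2, and by 0.36 in the controls. Col4a5 and Adam2, a sperm-surface ADAM, differed by 0.48 and 0.49 without overlap, and by 0.40 and 0.37 in the controls. Adam2 was 0.31 without Erg -/- replicate 1 in the reduced-Erg groups.

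**Figure D4:**
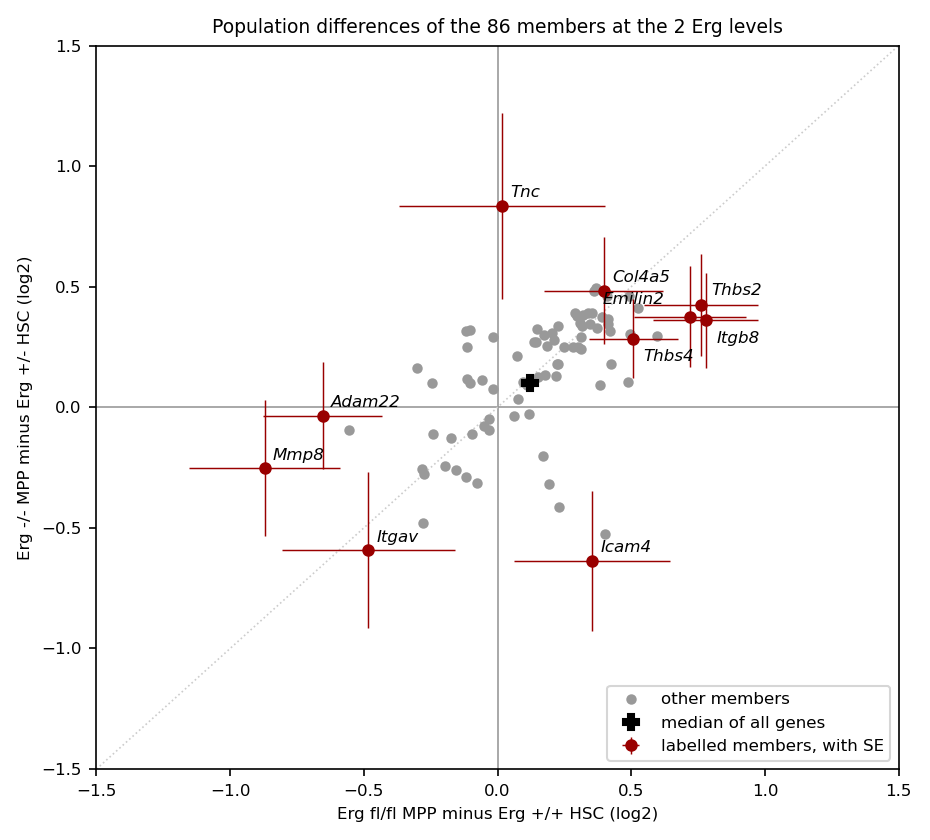
Difference in log2 value of the 86 members between Erg -/- MPPs and Erg +/- HSCs (y axis) against that between Erg fl/fl MPPs and Erg +/+ HSCs (x axis), with SE bars for the labelled members and a cross at the median of all genes. Itgb8, Thbs2 and Emilin2 lie farthest to the right, at 0.78, 0.76 and 0.72.

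The 2 population comparisons share no arrays. Across the members their Pearson correlation was 0.54 and their Spearman correlation 0.64, against 0.58 and 0.57 over all genes, and 69 members (80.2%) had the same sign, against 74.9% of genes.

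The population differences of members varied with their brightness. In the lowest quartile of mean value the median difference between the control populations was 0.23 for members and 0.22 for all genes, and in the second 0.22 and 0.18. In the third it was 0.07 and -0.06, and in the highest, with 5 members, -0.10 and 0.05. The reduced-Erg groups gave 0.25 and 0.26 in the lowest quartile and 0.29 and 0.17 in the second. There the third gave 0.10 for members and -0.11 for genes, and the highest -0.20 and -0.09. When quantile normalization was repeated, members above 0 numbered 52 (60.5%, against 53.9% of genes) in the controls and 55 (64%, against 58%) in the reduced-Erg groups. Centring on array medians gave 54 (62.8%, against 52.7%) and 61 (70.9%, against 55.5%).

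**Figure D5:**
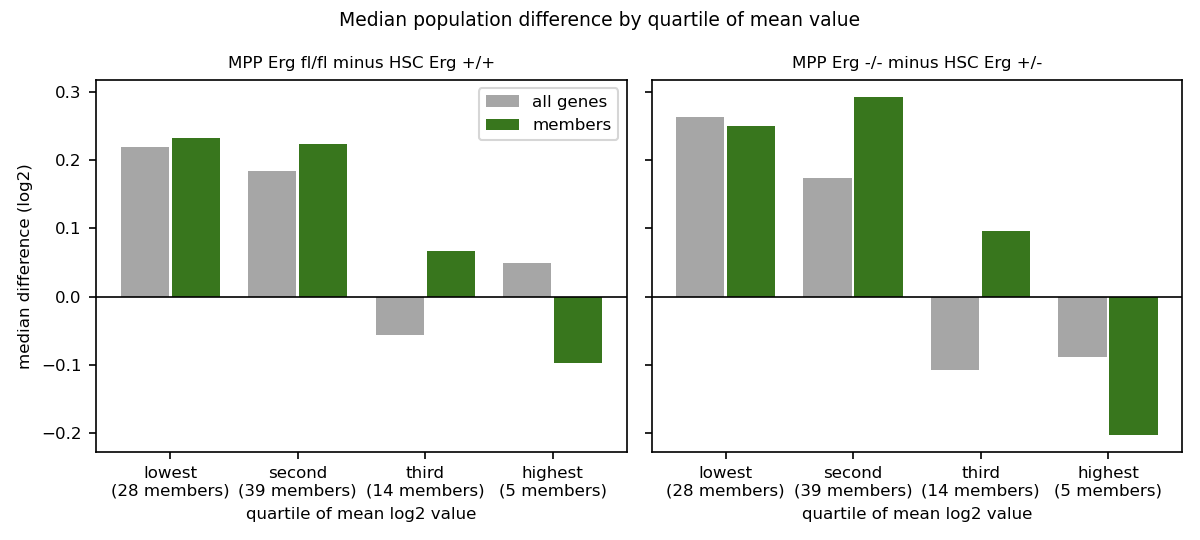
Median difference in log2 value between MPPs and HSCs (y axis) by quartile of mean log2 value (x axis), for all genes (grey) and members (green), in the control groups on the left and the reduced-Erg groups on the right. Both bars are above 0 in the lowest quartile, at 0.22 for genes and 0.23 for members in the controls.

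Further genes of matrix and adhesion were read from fixed lists. Of 44 genes for collagen and matrix processing, 19 were measured. In the control groups limma called 4 of them lower in MPPs than in HSCs, where 63 of all 9984 genes were called lower. These were Mmrn1, a multimerin of platelets and endothelium, at -4.30, Tgm2, a transglutaminase that crosslinks matrix, at -3.37, Chad, a cartilage glycoprotein, at -3.10, and Sparc at -1.40. Sparc was also the only 1 of the 19 called between HSC genotypes, where 2 of all genes were called. In the reduced-Erg groups Mmrn1 and Tgm2 were called, at -4.84 and -3.39, where 11 of all genes were called lower. None of the 19 was called in MPPs by genotype. Of the integrin machinery, 15 of 39 genes were measured, and of the junction partners 14 of 34, and limma called none of them in any of the 5 comparisons.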

How the data were processed

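RNA from sorted mouse marrow cells was measured on 12 Affymetrix arrays after amplification of 20 ng of total RNA. The authors made the deposited log2 values with RMA from the affy package, per the submitters' processing notes, without a version. RMA compresses the differences of dim probe sets. The build and whether arrays were normalised together are not given in the sources used here. Arrays carry no read depth, and their number limits the precision.

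Of 18719 probe sets, 10657 have 1 gene symbol, 523 several and 7539 are not listed. Each of 9984 genes was read from its brightest probe set (mean of 12 arrays), and all 86 members matched RefSeq gene IDs. Adamts3, Adamts9 and Cdh24 have more than 1 probe set, and 3 probe sets with several symbols, 1 of them matching the rule, were left out. Groups came from genotype labels. A single limma model (limma 3.58.1, R 4.3.3) with 4 group means and no filter gave 8 residual and 4.35 prior degrees of freedom. Tests were two-sided, with Benjamini-Hochberg adjustment over 9984 genes at 0.05, and the fit was tested on simulated data. Named members were, per comparison, those called or the 5 with the smallest p, the 8 with the widest range of group means, the smallest p per family, and adhesion genes set by name. Itga11, Itgad, Mmp2, Adam17, Col4a1, Col4a2, Adam6b, Adamts13 and Cdh13 were added to these once values had been seen. The members and lists were chosen with earlier results of these data known. Alternatives covered normalization, centring, moderation, probe sets, array weights, a filter on dim genes, the arrays fitted, the replicate block and single arrays left out.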

Additional observations from a re-analysis of the deposited data

How the results depend on the processing

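No member was called by limma in any comparison under any alternative, except Thbs2 between the control populations without Erg fl/fl replicate 1, so that leaving out single arrays gave 0 to 1 members there. The 5 smallest p in each comparison gave 25 values of 18 members, and none of their 531 alternative values changed direction. These values were picked for their small p in these same data, and several alternatives leave a difference unchanged by design. Their directions therefore say little about the other members. Over all 86, leaving out 1 compared array turned the sign in 13 to 55 members, depending on the comparison. Other printed differences did turn, among them those of Tnc, Timp1 and Cdh13 between control populations under repeated quantile normalization, and those of Mmp14 in HSCs and Icam4 between control populations without Erg +/+ replicate 1. Leaving out arrays for every member, not only those 18, was chosen after seeing the data. The count of members at an unadjusted p under 0.05 ran from 0 to 5 for HSC genotype, 0 to 6 for MPP genotype, 0 to 4 for the difference of effects, 2 to 26 between control populations and 0 to 9 between reduced-Erg populations. The filter on dim genes kept only the 19 members above the median gene, so its counts are not over all 86. With single arrays left out, the count between control populations ran from 9 to 26. The number of genes called moved more. For HSC genotype, 2 genes became 1 with the replicate block, 0 with the mean of probe sets, 5 with trended robust moderation, 0 with only the arrays compared, and 1 to 8 with single arrays left out. For the difference of effects, 2 became 0 with the block, 4 with trended robust moderation, and 0 to 3 with single arrays left out. For MPP genotype, 8 became 5 to 10 with single arrays left out. Between control populations, 128 became 61 with only the arrays compared, 60 with all probe sets, and 47 to 152 with single arrays left out. Without both arrays of lowest weight, an alternative chosen after seeing the data, the counts were 0, 4, 1 and 61 in the same order of HSC genotype, MPP genotype, difference and control populations. The cause of these changes in counts was not tested. Arrays with the same replicate number deviated together with correlations of only -0.0852 to 0.0862. The main fit did not pair samples by number, and whether the numbers mark a shared origin is not known. With 3 arrays per group, the 95% interval of a pairwise difference reached 0.31 to 1.03 log2 units to either side.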

Other observations

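Adamts3, a procollagen-processing protease, has 14 probe sets that disagree. The brightest, used above, differed by 0.49 between control populations with an SD of 1.01 in Erg +/+ HSCs. There, probe set 10531195 differed by 1.45, probe set 10531181 by 1.12 (limma unadjusted p = 0.000647) and probe set 10531197 by 0.91. Of the other probe sets, 4 had an unadjusted p under 0.05 there. In MPPs, Erg -/- minus Erg fl/fl was -1.26 in probe set 10531195 (limma unadjusted p = 0.0058), against 0.28 for the brightest. It was -0.92 in probe set 10531197 (limma unadjusted p = 0.0012) and -0.59 in probe set 10531181 (limma unadjusted p = 0.028). The remaining probe sets lay on both sides of 0, between -0.27 and 0.13. These probe sets were picked after their values were seen.

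Adam4, an ADAM of the testis, differed by 0.38 in HSCs and -0.55 in MPPs, with arrays overlapping in both, and its difference of effects was -0.93 (-1.96 to 0.10). Without Erg +/- replicate 1 these were -0.02 in HSCs and -0.53 for the difference of effects. Itgb1bp2, matched by letters only, differed by -0.11 and 0.31. The average population difference, added after seeing the data, was 0.57 for Itgb8 and 0.59 for Thbs2, each with a limma adjusted p of 0.0779.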
